A study of Mus musculus with 16 samples.

Results

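The circadian clock genes analysed here are the 10 genes Per1, Per2, Cry1, Cry2, Nr1d1, Nr1d2, Dbp, Bhlhe40, Clock and Timeless, chosen by gene symbol in the array's annotation. They are covered by 17 of the 25697 probes and make up 10 of the 16558 named genes on the array. The RNA came from primary bone marrow-derived macrophages of male wildtype mice (background strain c57Bl6/J, 10 weeks old). Cells were kept overnight with dexamethasone (Dex, 1 µM), a synthetic glucocorticoid, or with its vehicle ethanol (EtOH), and were then stimulated with lipopolysaccharide (LPS), the bacterial ligand of Toll-like receptor 4, or left without it. The groups were therefore Dex plus LPS, LPS alone, Dex alone and unstimulated, in one experiment with 6 h of LPS and a separate one with 3 h. Each of the 8 groups had 2 Illumina bead arrays, called technical replicates by the labels. The p-values here thus rest on the spread between arrays, not between mice or cultures. The 1 exception is the fit with the 2 experiments as the units, which uses the mean of each group's arrays.

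The mammalian clock is a transcriptional feedback loop. CLOCK and its partner BMAL1 (gene Arntl) bind E-box sequences and switch on the Period (Per) and Cryptochrome (Cry) genes, whose proteins return to the nucleus and repress CLOCK-BMAL1. The nuclear receptors REV-ERBα and REV-ERBβ (Nr1d1 and Nr1d2) form a second loop by repressing Arntl, DBP drives output genes through D-boxes, and BHLHE40 (DEC1) is a further repressor acting on E-boxes. Glucocorticoids are known to reset peripheral clocks and to act on Per1 and Per2 through the glucocorticoid receptor, and the macrophage clock is known to gate the cytokine response to LPS. Timeless carries the name of a Drosophila clock gene, while the mammalian protein is best known for protecting replication forks together with TIPIN.

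The windows around the annotated starts of the genes whose levels differed most are shown for the clock motifs they hold. RefSeq (GRCm38.p6) gave windows of 300 bases, from 250 before to 50 after a start, for 8 of the 10 genes, 11 windows in all; Per2 and Bhlhe40 are named only. Both strands were searched for the E-box CACGTG, its variant CACGTT, the D-box TTATGTAA, the CREB site TGACGTCA, the half-site AGGTCA of nuclear receptors such as the REV-ERBs, the AP-1 site TGACTCA, the glucocorticoid receptor half-site AGAACA and the full palindromic glucocorticoid response element. No 2 of the matches shown overlap, and capitals mark a match on either strand. The windows below are 5′ to 3′ on the gene's own strand: Per1 at chr11:69098699-69098998 and chr11:69099902-69100201 (plus strand), Nr1d2 at chr14:18239057-18239356 (minus strand), Dbp at chr7:45704997-45705296 (plus strand) and Timeless at chr10:128237816-128238115 (plus strand).
Per1, upstream start: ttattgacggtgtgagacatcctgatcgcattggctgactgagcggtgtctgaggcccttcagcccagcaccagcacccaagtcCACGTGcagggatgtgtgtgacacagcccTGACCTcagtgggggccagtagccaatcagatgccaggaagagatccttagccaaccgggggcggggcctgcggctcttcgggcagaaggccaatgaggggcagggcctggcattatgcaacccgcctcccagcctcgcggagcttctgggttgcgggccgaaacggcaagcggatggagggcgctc
Per1, downstream start: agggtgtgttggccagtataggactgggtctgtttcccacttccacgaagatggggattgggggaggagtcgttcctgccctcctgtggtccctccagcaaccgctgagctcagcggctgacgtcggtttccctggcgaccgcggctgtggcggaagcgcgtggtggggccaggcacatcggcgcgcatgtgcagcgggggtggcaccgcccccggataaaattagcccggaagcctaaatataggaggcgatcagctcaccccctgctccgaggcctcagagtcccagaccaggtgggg
Nr1d2: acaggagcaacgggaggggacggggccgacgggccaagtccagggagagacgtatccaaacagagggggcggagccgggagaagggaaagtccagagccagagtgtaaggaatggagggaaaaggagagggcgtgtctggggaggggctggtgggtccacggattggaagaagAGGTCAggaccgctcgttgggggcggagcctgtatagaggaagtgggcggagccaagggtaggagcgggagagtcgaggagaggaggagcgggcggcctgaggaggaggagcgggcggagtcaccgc
Dbp: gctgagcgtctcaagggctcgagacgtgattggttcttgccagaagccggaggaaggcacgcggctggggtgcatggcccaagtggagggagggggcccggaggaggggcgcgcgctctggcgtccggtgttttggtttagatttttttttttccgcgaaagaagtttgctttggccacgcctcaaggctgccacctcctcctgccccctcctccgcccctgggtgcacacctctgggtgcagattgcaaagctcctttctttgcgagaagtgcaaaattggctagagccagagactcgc
Timeless: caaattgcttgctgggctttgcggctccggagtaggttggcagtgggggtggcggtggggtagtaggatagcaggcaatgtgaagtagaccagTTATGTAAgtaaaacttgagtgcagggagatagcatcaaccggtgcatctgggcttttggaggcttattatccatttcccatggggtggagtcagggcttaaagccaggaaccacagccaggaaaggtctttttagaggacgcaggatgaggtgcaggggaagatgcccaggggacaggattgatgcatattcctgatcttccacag
The upstream Per1 window held the E-box, which 7.15% of all 32851 windows hold, and a nuclear receptor half-site, which 16.3% hold. The Nr1d2 window held 1 nuclear receptor half-site. The Timeless window held the D-box, which 0.938% of windows hold. That window lies inside the annotated gene (chr10:128232063-128252941) and not at its 5′ end. The downstream Per1 window and the Dbp window held none of the letters searched. Both Per1 windows likewise lie inside the annotated gene (chr11:69095108-69109965), and upstream and downstream name only their order. No window at the outer 5′ end of Per1 or Timeless was searched. A match describes the letters in a window and not a bound site.

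Across the arrays, 10407 to 11281 probes were above background (detection p under 0.05) at 6 h and 11273 to 11921 at 3 h, and median signals were 154 to 189 and 164 to 172. Of the listed macrophage markers, 7 of 7 on the array were above background in every group, while none of the T cell, B cell, dendritic cell, NK cell or fibroblast markers were. All 4 neutrophil granule genes on the array (Elane, Mpo, Ngp, Camp) were above background in every group, with a summed signal of 2770 with Dex plus LPS, 2912 with LPS, 2841 with Dex and 2288 without stimulation at 6 h; their part in the results was not tested. In the 3 h experiment, the arrays labelled unstimulated and Dex went against their labels. The LPS-induced cytokine gene Tnf gave 61625 ± 2660 with Dex plus LPS, 62694 ± 501 with LPS, 62118 ± 1040 on the arrays labelled Dex and 62658 ± 177 on those labelled unstimulated (mean signal ± SD, n = 2 arrays each). The glucocorticoid-induced gene Fkbp5 gave 1873 ± 155 with Dex plus LPS but 239 ± 12.1 on the arrays labelled Dex, against 239 ± 12.9 on those labelled unstimulated. At 6 h the same genes followed the labels, with Tnf at 56064 ± 1310 with LPS against 1890 ± 403 without stimulation, and Fkbp5 at 2989 ± 223 with Dex against 251 ± 46.4 without stimulation. In comparisons of Dex plus LPS with LPS at 3 h, the doubted arrays enter the normalization, the estimate of the spread, the choice of probes and the set of genes tested, but neither group mean.

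The authors also deposited a spline-normalized table of the 6 h experiment, which was not used for the values below. Its columns correlated in rank with the same-named unnormalized columns at 0.863 to 0.895 and showed no Dex response. Fkbp5 stood in it at 427 and 361 with Dex plus LPS, 424 and 381 with LPS, 426 and 414 with Dex, and 414 and 464 without stimulation. Per1 stood at 360 and 420 with Dex plus LPS, against 446 and 441 with LPS, and at 581 and 583 with Dex, against 533 and 541 without stimulation. Timeless stood at 403 and 325 with LPS, against 529 and 527 without stimulation, the opposite direction to the unnormalized table (-0.54 log2, adjusted p = 0.000154). Dbp stood at 418 and 437 with LPS, against 918 and 931 without stimulation, lower in both tables. The Dex effects on Per1, Per2, Nr1d2 and Timeless at 6 h therefore rest on the unnormalized table, and those at 3 h on a table of their own.

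Of the 10 clock genes, 7 were above background in the 6 h experiment and 8 in the 3 h experiment, where Cry2 was added. A gene was tested where its brightest detected probe exceeded background on both arrays of at least 1 group; 7791 genes were tested at 6 h and 8032 at 3 h. Cry1, a core repressor, gave signals of 99.6 to 129 and Nr1d1 (REV-ERBα) signals of 110 to 153 over all 16 arrays, and neither was above background on any of them. Cry2, the other cryptochrome, gave 145 to 175 at 6 h, above background on no array, and 178 to 249 at 3 h. A gene was called when its log2 difference (limma, all 8 arrays of the experiment) reached 2-fold with a Benjamini-Hochberg adjusted p under 0.05. Fewer cells of a type and less RNA per cell cannot be told apart in these bulk samples.

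**Figure D1:**
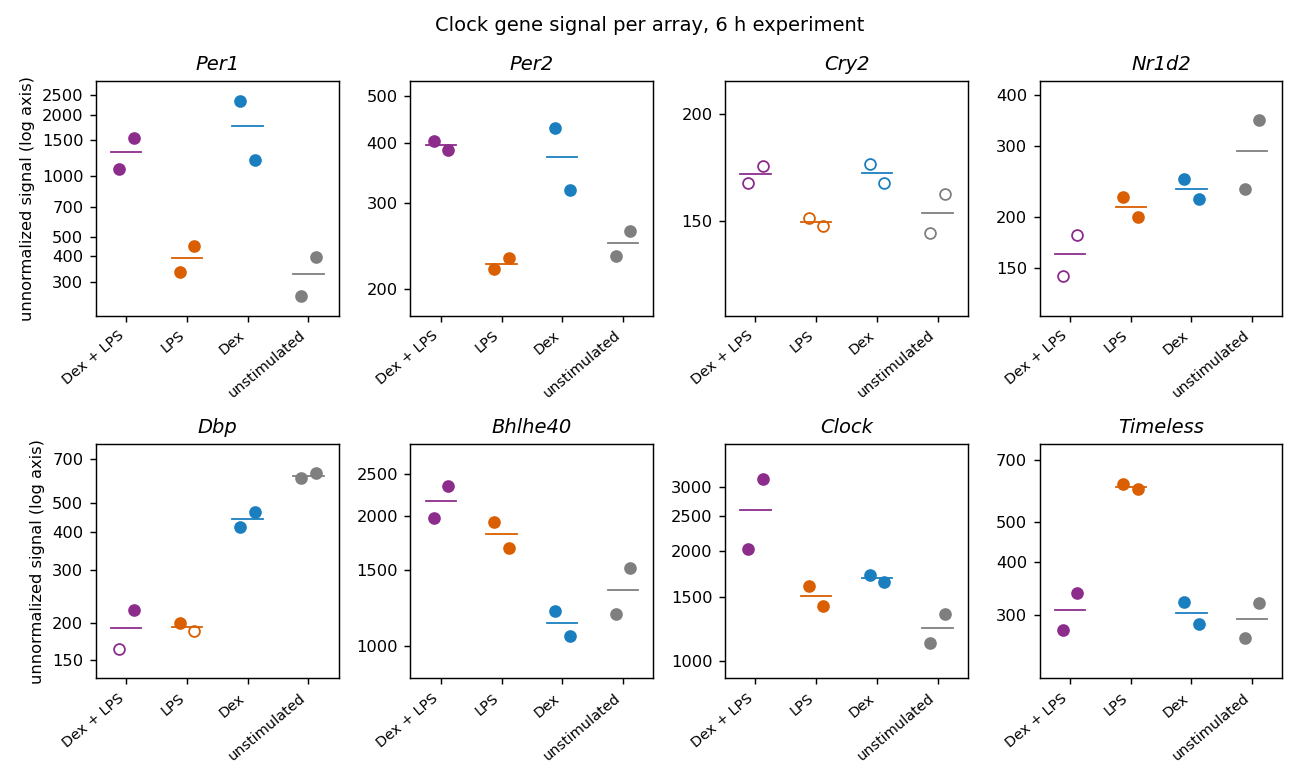
Unnormalized signal of the 8 clock genes with a detected probe on each array of the 6 h experiment (y axis, log scale; 2 points and their mean line per group; open points were not above background). Per1 and Per2 were higher on all 4 arrays with Dex than on the 4 without, Dbp was low on all 4 arrays with LPS, and Timeless was high on the 2 LPS arrays alone.

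In macrophages given LPS for 6 h, prior Dex raised the 2 Period genes and lowered Nr1d2 and Timeless. Of the 7 clock genes tested, 2 were called higher and 2 lower with Dex plus LPS than with LPS, where 1.31% of all genes tested were called higher and 2.45% lower. The median log2 difference was 0.02 over the 7 and 0.06 over all genes. Per1, which encodes a repressor of CLOCK-BMAL1, gave signals of 1073 and 1533 with Dex plus LPS, against 337 and 451 with LPS. Both Dex plus LPS arrays were far above the LPS arrays, and the groups did not overlap. The normalized difference was 1.80 ± 0.32 log2 (SE, 3.47-fold higher, adjusted p = 0.00918). The call was lost without 1 LPS array (replicate 1, 1.49, adjusted p = 0.101) and without either Dex plus LPS array (replicate 1, 1.88, adjusted p = 0.0726; replicate 2, 1.71, adjusted p = 0.104).

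Per2, the second Period repressor, gave 404 and 386 with Dex plus LPS, against 220 and 231 with LPS. The groups did not overlap, and the difference was 1.12 ± 0.22 log2 (2.17-fold higher, adjusted p = 0.0137). It was lost without either LPS array (1.01, adjusted p = 0.129 without replicate 1; 1.23, adjusted p = 0.0683 without replicate 2) or the first Dex plus LPS array (0.88, adjusted p = 0.152). A second Per2 probe gave 323 and 362 with Dex plus LPS, against 164 and 159 with LPS, where it was not above background, so it was at least 2.67-fold higher (adjusted p = 0.000639 over 11320 probes). The remaining Per2 probe was above background on no array. Both measured probes of Per2 therefore lay higher with Dex plus LPS, and so did both probes of Per1, whose second probe gave 646 and 893 with Dex plus LPS, against 239 and 253 with LPS (2.07 ± 0.21 log2, adjusted p = 0.000337).

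Nr1d2, the REV-ERBβ gene, had a second probe that was above background on no array. Its brighter probe gave 143 and 181 with Dex plus LPS, neither above background, against 224 and 200 with LPS. The level with Dex plus LPS is thus a bound, and Nr1d2 was at least 1.46-fold lower (fitted log2 difference -1.14 ± 0.25, adjusted p = 0.0214). Its call was lost without any 1 of the 4 arrays compared: -1.40 (adjusted p = 0.0568) and -0.88 (adjusted p = 0.201) without the second and first Dex plus LPS array, and -1.33 (adjusted p = 0.0689) and -0.96 (adjusted p = 0.172) without the second and first LPS array.

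Timeless, the replication-fork protector, gave 277 and 339 with Dex plus LPS, against 613 and 597 with LPS. The groups were far apart, and the difference was -1.73 ± 0.16 log2 (3.31-fold lower, adjusted p = 0.000282). This call held without each array in turn. A second Timeless probe was above background on no array.

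The remaining clock genes did not pass. Clock, the activating subunit, gave 2032 and 3165 with Dex plus LPS, against 1608 and 1413 with LPS (0.55 ± 0.18 log2, adjusted p = 0.093). The other Clock probes were above background on no array at 6 h. Bhlhe40 differed by 0.02 ± 0.17 log2 (adjusted p = 0.957). Dbp, the D-box activator, gave 163 (not above background) and 220 with Dex plus LPS, against 199 and 188 (not above background) with LPS, overlapping groups that differed by -0.32 ± 0.27 log2 (adjusted p = 0.527).

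In the separate 3 h experiment, prior Dex again raised Per1 and lowered Nr1d2 and Timeless, while Per2 missed the threshold. Of the 8 clock genes tested, 1 was called higher and 2 lower, where 1.16% of all genes tested were called higher and 2.28% lower. Per1 gave 2299 and 2138 with Dex plus LPS, against 553 and 589 with LPS, a difference of 2.24 ± 0.08 log2 (4.74-fold higher, adjusted p = 4.36e-05). The second Per1 probe gave 803 and 731 with Dex plus LPS, against 251 and 286 with LPS (2.15 ± 0.14 log2, adjusted p = 0.000296). Both probes and both experiments thus placed Per1 higher with Dex plus LPS. Per2 gave 441 and 369 with Dex plus LPS, against 285 and 241 with LPS. The groups did not overlap, but the difference of 0.99 ± 0.31 log2 missed the threshold (adjusted p = 0.0512). Its second probe passed the adjusted p at under 2-fold (0.71 ± 0.16 log2, adjusted p = 0.0222 over 11801 probes).

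Nr1d2 gave 171 and 174 with Dex plus LPS at 3 h, neither above background, against 256 and 242 with LPS, and was at least 2.14-fold lower (fitted -1.37 ± 0.12 log2, adjusted p = 0.000807). Timeless gave 177 and 175 with Dex plus LPS, neither above background, against 214 and 262 with LPS, and was at least 1.92-fold lower (fitted -1.14 ± 0.20 log2, adjusted p = 0.00769). Without the second LPS array its fitted difference was -0.91 (adjusted p = 0.0353), under 2-fold. With the doubted arrays left out of the fit, Per1 had an adjusted p of 0.00277, Nr1d2 of 0.00886 and Timeless of 0.0219. Cry2 (-0.05 ± 0.20), Dbp (-0.34 ± 0.27), Bhlhe40 (0.19 ± 0.10) and Clock (0.18 ± 0.08 log2) did not pass, with adjusted p of 0.884, 0.366, 0.202 and 0.139. Background correction set part of these calls: without it, Per2 (0.62 log2, adjusted p = 0.0237) and Nr1d2 (-0.49, adjusted p = 0.071) at 6 h, and Nr1d2 (-0.53, adjusted p = 0.000289) and Timeless (-0.43, adjusted p = 0.00296) at 3 h, were all under 2-fold. None of the 7 genes tested in both experiments passed the limma test for a Dex effect that differs between 6 h and 3 h (1 of 7 at an unadjusted p under 0.05), where 0.483% of 7458 genes passed the test of the difference upwards and 0.644% downwards. The closest was Timeless, at -0.58 ± 0.24 log2 (6 h minus 3 h, adjusted p = 0.225), which passed without background correction (-0.75, adjusted p = 0.0148). The experiments also differed in RNA extraction, which cannot be told apart from the LPS time.

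**Figure D2:**
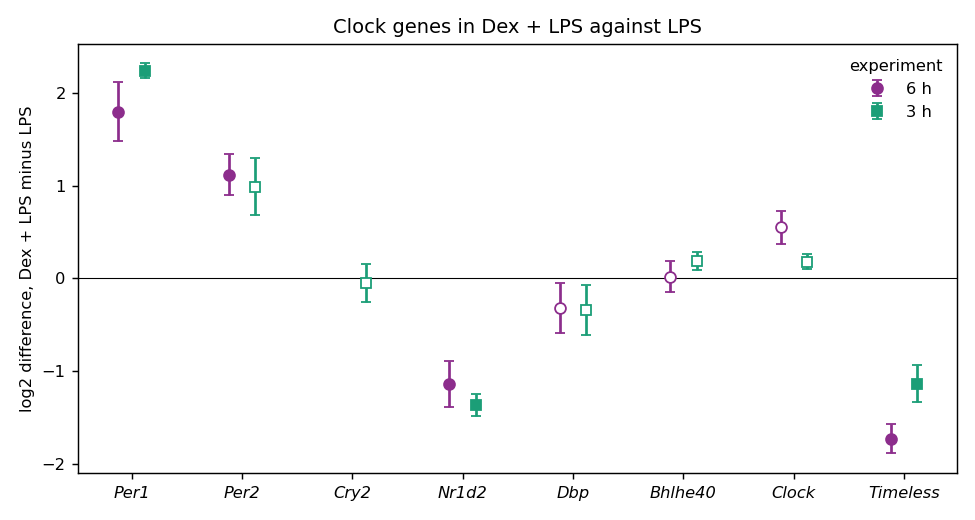
Log2 difference between Dex plus LPS and LPS for each clock gene (y axis; points are limma estimates, bars their SE, filled points were called) at 6 h (circles) and 3 h (squares). Per1 lies at 1.80 and 2.24, Nr1d2 at -1.14 and -1.37, and Timeless at -1.73 and -1.14.

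With the 2 experiments as the units, Per1 (2.02 ± 0.19 log2, adjusted p = 0.000101), Per2 (1.05 ± 0.18, adjusted p = 0.00545), Nr1d2 (-1.25 ± 0.18, adjusted p = 0.00197) and Timeless (-1.43 ± 0.20, adjusted p = 0.00149) were called in Dex plus LPS against LPS. Over all 7458 genes, 0.778% were called higher and 1.94% lower. This fit rests on 1 residual degree of freedom per gene and a prior of 10.4 borrowed across genes. The Nr1d2 and Timeless values are fitted ones, since both fell below background with Dex plus LPS in at least 1 experiment.

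Without LPS, Dex raised Per1 at 6 h and lowered Dbp and Nr1d2. Per1 gave 2343 and 1192 with Dex, against 255 and 397 without stimulation, and the groups did not overlap although the Dex arrays differed from each other. The difference was 2.63 ± 0.32 log2 (6.21-fold higher, adjusted p = 0.00148). The second Per1 probe gave 1324 and 887 with Dex, against 348 and 376 without stimulation (1.57 ± 0.21 log2, adjusted p = 0.00269). In all, 1 clock gene was called higher and 2 lower of the 7 tested, where 1.63% of all genes were called higher and 1.89% lower.

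The 2 genes called lower with Dex alone were Dbp and Nr1d2. Dbp gave 417 and 466 with Dex, against 605 and 631 without stimulation (-1.18 ± 0.27 log2, adjusted p = 0.031). Nr1d2 gave 249 and 222 with Dex, against 235 and 347 without stimulation, so its unnormalized groups overlapped (-1.02 ± 0.25 log2, adjusted p = 0.0375). Both calls lie close to the threshold. Each was lost under median scaling of the arrays (Dbp -0.78, adjusted p = 0.0563; Nr1d2 -0.68, adjusted p = 0.07), which moved the median of all genes by 0.284 log2, and without the first Dex array (Dbp -0.91, adjusted p = 0.167; Nr1d2 -0.95, adjusted p = 0.15), the second unstimulated array (-1.35, 0.0593; -0.75, 0.143) or either LPS array (-1.18, 0.0623; -1.02, 0.0616). Dbp was also lost without the first unstimulated array (-1.01, adjusted p = 0.15) and Nr1d2 without either Dex plus LPS array (-1.02, adjusted p = 0.0543). Bhlhe40 gave 1205 and 1053 with Dex, against 1188 and 1512 without stimulation, so its unnormalized groups overlapped too. It fell by less than 2-fold (-0.74 ± 0.17 log2, limma adjusted p = 0.03) and did not pass under median scaling (-0.39, adjusted p = 0.18). Per2 gave 429 and 320 with Dex, against 234 and 263 without stimulation, which did not pass (0.58 ± 0.22 log2, adjusted p = 0.138), although its second probe did (1.05 ± 0.24 log2, adjusted p = 0.0302). Clock (0.06 ± 0.18) and Timeless (-0.40 ± 0.16 log2) did not pass.

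LPS alone lowered Dbp and raised Timeless at 6 h. Dbp gave 199 and 188 with LPS, 1 of them not above background, against 605 and 631 without stimulation. The fitted difference was -3.04 ± 0.27 log2 (8.25-fold lower, adjusted p = 2.15e-05). The size of this Dbp fall depended on background correction, with the LPS signals near the detection limit. It was smaller without the correction and with the authors' processed values, although Dbp was still called lower in both. Timeless gave 613 and 597 with LPS, against 265 and 321 without stimulation (1.42 ± 0.16 log2, 2.68-fold higher, adjusted p = 0.000107). These were the 1 gene called lower and the 1 called higher of the 7 tested, where LPS called 8.75% of all genes lower and 8.36% higher. Both calls held without each array in turn. Nr1d2 gave 224 and 200 with LPS, against 235 and 347 without stimulation (-0.98 ± 0.25 log2, adjusted p = 0.0109), a fall just under 2-fold.

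The 2 Per1 probes disagreed about LPS. The brighter one gave 337 and 451 with LPS, against 255 and 397 without stimulation (0.36 ± 0.32 log2, adjusted p = 0.419). The other gave 239 and 253 with LPS, against 348 and 376 without stimulation, and dropped by 1.10 log2 (SE 0.21, adjusted p = 0.00281 over 11320 probes). The mean of both was -0.37 log2 (adjusted p = 0.256), so no direction of Per1 under LPS alone is given here. Per2 (-0.33 ± 0.22), Bhlhe40 (0.24 ± 0.17) and Clock (0.11 ± 0.18 log2) did not pass the test.

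**Figure D3:**
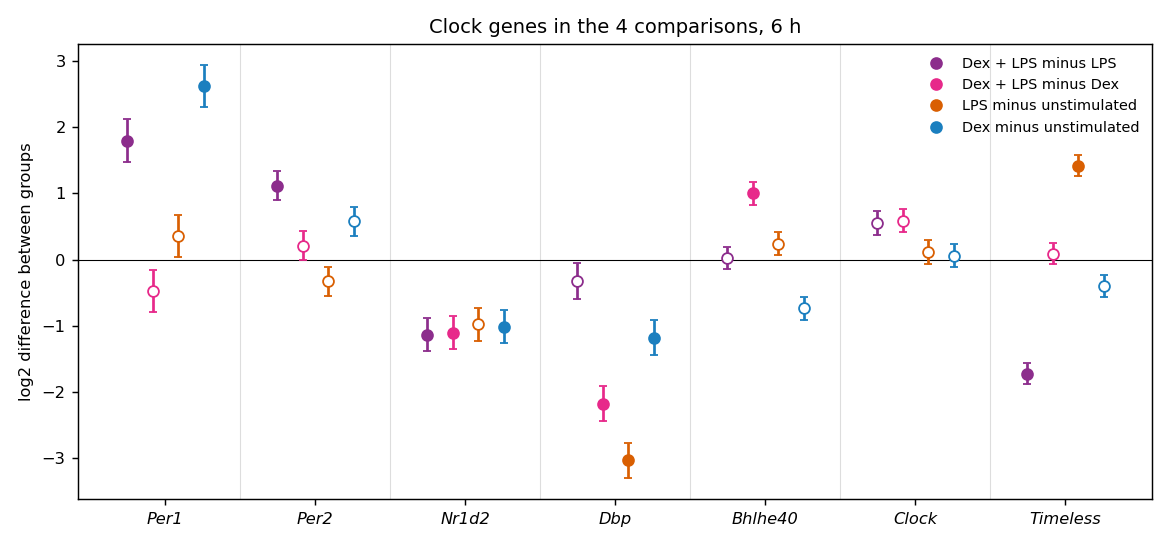
Log2 differences of the 7 clock genes tested at 6 h in 4 comparisons (y axis; points are limma estimates, bars their SE, filled points were called). Dbp lies far below 0 in both comparisons that add LPS (-2.18 and -3.04), and Timeless lies at -1.73 in Dex plus LPS minus LPS and at 1.42 in LPS minus unstimulated. Comparisons that share a group share its arrays.

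In cells that had received Dex, adding LPS for 6 h lowered Dbp and Nr1d2 and raised Bhlhe40, where 6.74% of all genes tested were called lower and 6.75% higher. Dbp gave 163 (not above background) and 220 with Dex plus LPS, against 417 and 466 with Dex (fitted -2.18 ± 0.27 log2, adjusted p = 0.000241). Bhlhe40, an E-box repressor, gave 1980 and 2346 with Dex plus LPS, against 1205 and 1053 with Dex, a difference of 1.00 ± 0.17 log2 (2-fold, adjusted p = 0.00157) that sits at the fold threshold and was 0.93 (adjusted p = 0.0248) without the first Dex plus LPS array. Nr1d2 was at least 1.42-fold lower (fitted -1.11 ± 0.25 log2, adjusted p = 0.00736), a call lost without the same array (-0.85, adjusted p = 0.0874). Clock gave 2032 and 3165 with Dex plus LPS, against 1723 and 1651 with Dex, and rose by less than 2-fold (0.59 ± 0.18 log2, adjusted p = 0.0299). Per1 (-0.48 ± 0.32), Per2 (0.21 ± 0.22) and Timeless (0.09 ± 0.16 log2) did not pass.

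The level of each gene over the 4 groups at 6 h can be ordered only in part. By its brighter probe, normalized Per1 averaged 9.99 log2 with Dex plus LPS, 8.19 with LPS, 10.47 with Dex and 7.83 without stimulation. On that probe, neither the 2 groups with Dex nor the 2 without it differed beyond their spread. The second Per1 probe averaged 7.06 with LPS and 8.16 without stimulation, and was called lower with LPS (limma, adjusted p = 0.00281 over 11320 probes). Timeless averaged 7.31 with Dex plus LPS, 9.04 with LPS, 7.22 with Dex and 7.62 without stimulation, with the LPS group apart and the neighbours among the others not distinguished. Dbp averaged 5.88 with Dex plus LPS, 6.20 with LPS, 8.06 with Dex and 9.24 without stimulation, so both LPS groups were lowest and did not differ from each other. Nr1d2 was highest without stimulation at 7.54 log2, and stood at 5.42 with Dex plus LPS, 6.56 with LPS and 6.53 with Dex.

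Timeless alone of the 7 clock genes passed the test for a Dex effect that differs between the presence and absence of LPS at 6 h. By the same limma term, 3 of the 7 had an unadjusted p under 0.05. The Dex effect was -1.73 log2 with LPS and -0.40 without it, and the difference between them was -1.33 ± 0.23 log2 (interaction term, adjusted p = 0.0425), where 0.372% of 7791 genes passed downwards and 0.193% upwards. The estimate was -1.28 to -1.38 when each array was left out, but the adjusted p rose to between 0.0728 and 0.218 in 7 of the 8 cases and stayed under the threshold only without the second Dex array. With replicate number as a block, the Timeless difference did not pass (-1.33 log2, adjusted p = 0.0877). Bhlhe40 (0.76 ± 0.24, adjusted p = 0.177), Dbp (0.86 ± 0.38, adjusted p = 0.303) and Per1 (-0.84 ± 0.46 log2, adjusted p = 0.385) did not pass.

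Of the 10 replication-fork partners of Timeless on the array, 9 were tested at 6 h, and with LPS none was called higher and 5 were called lower, where 8.36% of all genes tested were called higher and 8.75% lower. The median log2 difference was -1.11 over the 9 and -0.09 over all genes, and Timeless itself was called higher. Mcm3, a further helicase subunit, did not pass (-0.17 ± 0.24 log2, adjusted p = 0.618), and Mcm4 (-0.98 ± 0.18, adjusted p = 0.00185) and Mcm6 (-0.70 ± 0.17, adjusted p = 0.0086) passed the adjusted p at under 2-fold. Mcm5, a subunit of the replicative helicase, dropped by 1.42 log2 (SE 0.23, adjusted p = 0.000927), and Pcna, the sliding clamp, fell by 1.11 (SE 0.22, adjusted p = 0.00294). Mcm2 was at least 2.61-fold lower (adjusted p = 0.000231), the checkpoint mediator Clspn at least 1.63-fold lower (adjusted p = 0.00325) and Wdhd1 at least 1.02-fold lower (adjusted p = 0.0101), all 3 below background with LPS. Tipin, the direct partner of Timeless, fell by 0.53 (SE 0.17, adjusted p = 0.0298), under 2-fold. In Dex plus LPS against LPS none of the 9 was called, and none passed the adjusted p alone, as 7.82% of all genes did, with limma estimates between -0.47 (Mcm6) and 0.60 (Mcm5) and 2 of 9 at an unadjusted p under 0.05.

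**Figure D4:**
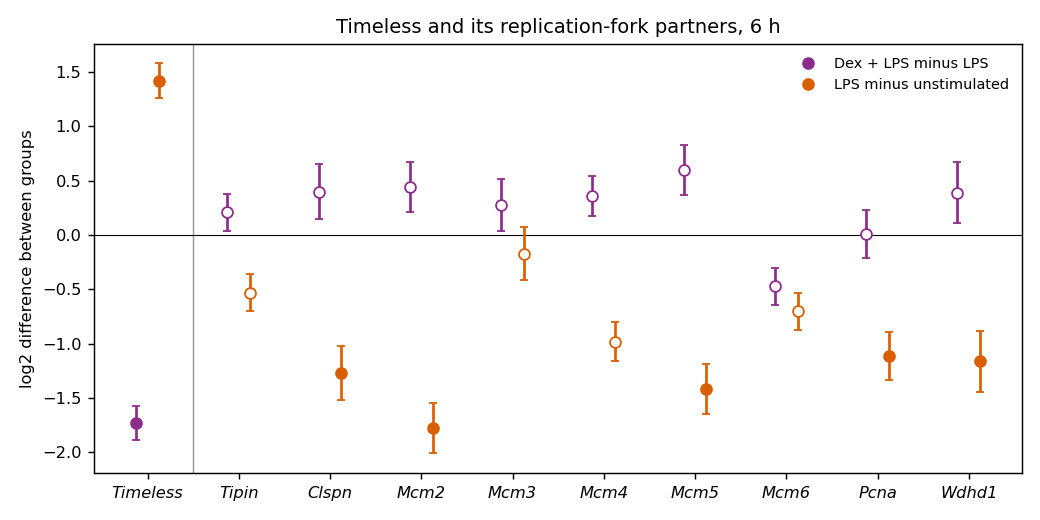
Log2 differences at 6 h of Timeless (left of the line) and 9 of its replication-fork partners in Dex plus LPS minus LPS and in LPS minus unstimulated (y axis; bars are SE, filled points were called). Timeless lies at 1.42 with LPS, while the 9 partners lie between -1.78 and -0.17.

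Among the other clock genes, 20 were analysed on the array and 11 of them were tested at 6 h. In Dex plus LPS against LPS, Usp2, a deubiquitinase that acts on clock proteins, was the 1 of 11 called (1.24 ± 0.19 log2, adjusted p = 0.00399), where 1.31% of all genes were called higher and 2.45% lower. With LPS alone, where 8.75% of all genes were called lower and 8.36% higher, Tef, a D-box activator of the same family as Dbp, was the 1 of 11 called, at least 2.61-fold lower (adjusted p = 8.61e-05), and it was also lower in Dex plus LPS against Dex (-1.01 ± 0.16 log2, adjusted p = 0.0012). Both measured D-box activators, Dbp and Tef, were thus lower with LPS. Arntl, the partner of Clock, passed in none of the 6 h comparisons, and its difference with LPS was -0.49 ± 0.18 log2 (adjusted p = 0.0529). The output genes Noct, a circadian deadenylase-family protein, and Nampt, the rate-limiting enzyme of NAD salvage, passed the adjusted p with LPS at just under 2-fold (0.99 ± 0.23 and 0.95 ± 0.21 log2, adjusted p = 0.00665 and 0.00573). By limma none of the 11 was called with Dex alone (3 at an unadjusted p under 0.05; 1.63% of all genes were called higher and 1.89% lower), where Csnk1d, a kinase of the Period proteins, fell by less than 2-fold (-0.68 ± 0.17 log2, adjusted p = 0.0387). At 3 h, 13 were tested and 1 was called in Dex plus LPS against LPS: Bhlhe41 (DEC2), at least 1.8-fold lower (adjusted p = 0.00952), where 1.16% of all genes were called higher and 2.28% lower. Between LPS and the label unstimulated at 3 h, 2 of the 13 were called, both higher, where 2.91% of all genes were called in either direction: Btrc, a ubiquitin ligase subunit that acts on Period proteins (1.44 ± 0.13 log2, adjusted p = 0.00105), and Bhlhe41, at least 1.81-fold (adjusted p = 0.00391). Both values rest on the doubted label. Bhlhe41 was above background neither with Dex plus LPS nor on the arrays labelled unstimulated, and was not tested at 6 h. Both its calls draw on the same LPS arrays, where it was highest (6.61 log2, against 5.66 on the arrays labelled Dex). They are therefore not independent results.

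**Figure D5:**
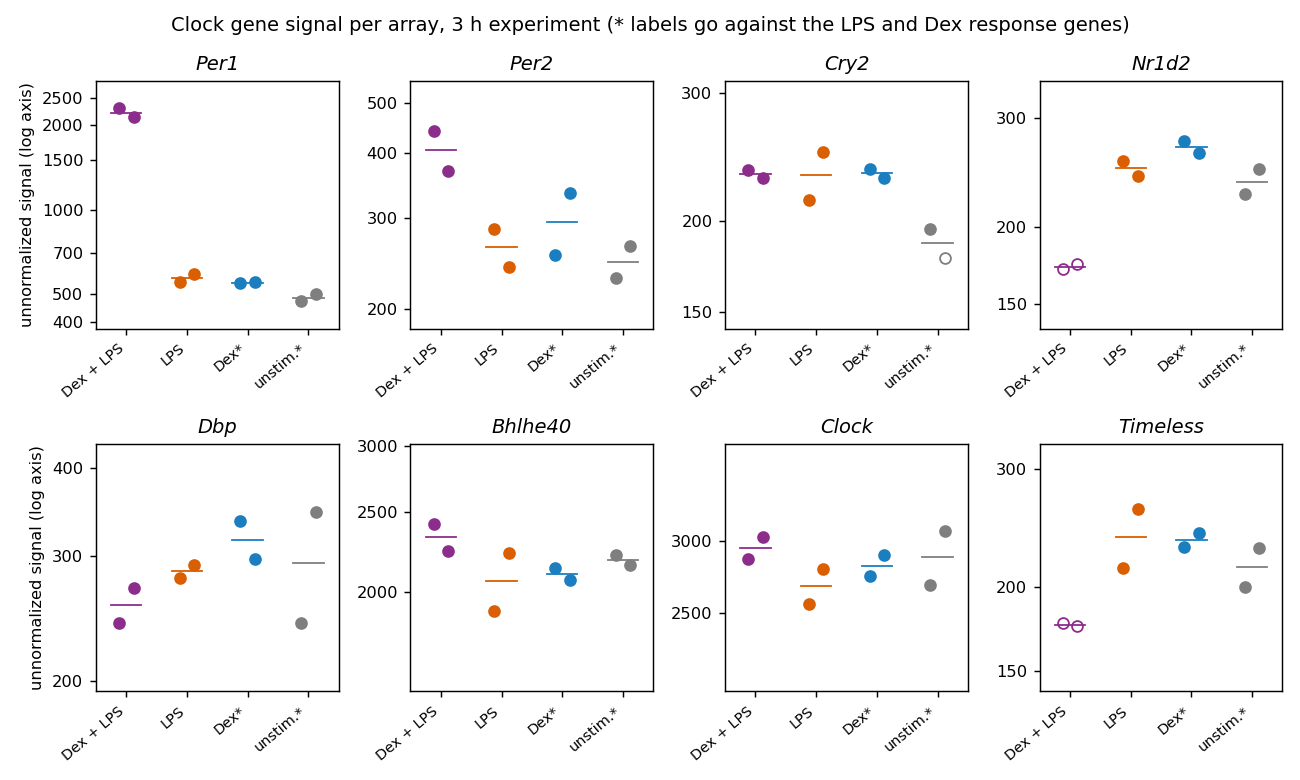
Unnormalized signal of the same clock genes on each array of the 3 h experiment (y axis, log scale; 2 points and their mean line per group; open points were not above background). Per1 lies at 2138 and 2299 with Dex plus LPS and between 472 and 589 elsewhere; asterisks mark the groups whose labels go against their LPS and Dex response genes.

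In the 3 h experiment, none of the 8 clock genes tested was called between LPS, or the label Dex, and the label unstimulated. Per1 gave 547 and 553 on the arrays labelled Dex, against 472 and 501 on those labelled unstimulated (0.15 ± 0.08 log2, adjusted p = 0.251), and 553 and 589 with LPS. Dbp gave 280 and 292 with LPS, against 242 and 346 on the arrays labelled unstimulated (-0.18 ± 0.27 log2, adjusted p = 0.628). By limma, 3 and 2 of the 8 had an unadjusted p under 0.05 in these comparisons, where 2.91% of all genes were called between LPS and the label unstimulated and 0.759% between the labels Dex and unstimulated. Cry2 passed the adjusted p in both at under 2-fold (0.76 ± 0.20, adjusted p = 0.0286, and 0.89 ± 0.20 log2, adjusted p = 0.0368), with 1 of the 2 arrays labelled unstimulated not above background. Clock also passed between LPS and the label unstimulated (-0.28 ± 0.08 log2, adjusted p = 0.0363). These values rest on the doubted labels.

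The 3 genes whose normalized level followed each clock gene most closely over the 8 arrays of the 6 h experiment were named by Pearson correlation among 7790 genes, with arrays of 4 groups as the shared source of variation. Per1 ran with Orm2, an acute-phase protein gene (r = 0.976 at 6 h and 0.965 at 3 h), Usp33 (0.967 and 0.0746) and Herpud1, an endoplasmic reticulum stress gene (0.965 and 0.766). Timeless ran with Fam3b (0.987), Ifnb1, the interferon beta gene (0.984 and 0.917 at 3 h), and Ccl7, a monocyte chemokine (0.983 and 0.899). Dbp ran with Zfand2a, Vrk3 and Lmna at 0.989 to 0.992 at 6 h, and at 0.307 to 0.654 at 3 h. The nearest genes were Emilin1, Bms1 and E2f1 for Per2, Endod1, Kcnn4 and Tspan17 for Nr1d2, Ptgir, Jmjd6 and Fam20b for Bhlhe40, and Ccnk, Pde4d and Pik3r3 for Clock. For Clock the 3 correlations of 0.971 to 0.975 at 6 h were -0.467 to -0.028 at 3 h, so likeness at 6 h did not carry over.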

How the data were processed

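The arrays were Illumina mouse bead arrays, read out with GenomeStudio per the submitters' processing notes (version not given in the sources used here). The deposited tables hold intensity per probe for the 3 h and the 6 h experiment, not normalized per the file headers, with a detection p-value from the authors for each. The authors also deposited a cubic spline-normalized intensity table for 6 h and processed values for all arrays. The authors' processed log2 values for 6 h follow the log2 of the unnormalized intensity, centred per probe, up to 1 constant per array (21694 probes, 99th percentile of the deviation 5e-04 to 0.00057 log2), and 4003 probes are empty. Their column medians were -0.0123 and -0.197 with Dex plus LPS, 0.0458 and 0.017 with LPS, -0.0978 and -0.0893 with Dex, and 0.163 and 0.106 without stimulation; those of the 3 h columns, on a linear scale in the same rank order as the deposited intensity, ran from 166.984 to 167.067. The method that normalized the 3 h columns was not identified. In Dex plus LPS against LPS, these columns gave -0.53 log2 for Nr1d2 and -0.43 for Timeless. Quantile normalization without background correction gave the same 2 values.

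Here limma 3.58.1 (R 4.3.3) corrected background with the detection p-values (offset 16), quantile-normalized each experiment and took log2. The 3 h signal columns name a group but no replicate, and their unnamed detection columns were read as closing the block that each signal column opens. Symbols came from the platform annotation: 23846 probes have 1 symbol, 0 several and 1851 are not listed. A gene stands by its brightest detected probe over all 16 arrays. One mean per group was fitted over the 8 arrays of an experiment with eBayes and Benjamini-Hochberg adjustment; a call needs adjusted p under 0.05 and 2-fold, and tests of a difference between effects need the adjusted p alone. "At least" folds set the bright group against the lowest signal above background. On simulated data, 99% of genes changed by 1.5 log2 were recovered at 6 h (7791 genes, Dex plus LPS against LPS). The simulated noise was normal, independent between arrays and drawn from the fitted spread. Smaller changes, such as those of Per2 and Nr1d2 at 6 h, were not simulated. The share recovered therefore cannot show how stable the calls on the real arrays are. The number of arrays limits the precision. A further 32 columns of bead numbers and bead errors were not used. The named genes are all 10 members, fixed lists of other clock genes, Timeless partners and label-check genes, and the 3 nearest genes of each member. The members and the lists were chosen with earlier results of these data known. Alternatives covered scaling, background, detection filter, probe choice, fold minimum, arrays left out, the replicate block and the authors' tables.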

Additional observations from a re-analysis of the deposited data

Results flagged for a closer look

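The Dex effect on Timeless at 6 h differed between LPS-treated and unstimulated macrophages: the difference of the 2 effects was -1.33 log2 (SE 0.23, limma interaction term, adjusted p = 0.0425). Timeless was lower on both Dex plus LPS arrays than on both LPS arrays (277 and 339, against 613 and 597). The Dex and unstimulated arrays overlapped (323 and 285, against 265 and 321). With replicate number as a block, the interaction term for Timeless did not pass (adjusted p = 0.0877). Its adjusted p was 0.0728 to 0.218 in 7 of the 8 fits that left out 1 array.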

How the results depend on the processing

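Outside the authors' spline-normalized table, Per1, Per2, Nr1d2 and Timeless in Dex plus LPS against LPS, and Dbp and Timeless with LPS at 6 h, kept their direction under each scaling, background, filter, probe and array choice that gave them a value; genes dropped by the filter for detection on every array have none there, as Nr1d2 and Dbp at 6 h and Nr1d2 and Timeless at 3 h. In LPS against unstimulated at 6 h, 2 clock genes were called, against 1 with genes detected on every array, in the authors' spline-normalized table and with the authors' processed values (2 to 3 with each array left out). In Dex against unstimulated at 6 h, 3 clock genes were called, against 0 in the authors' spline-normalized table and 1 with median scaling, without background correction, without the detection filter, with genes detected on every array, with the arrays of the groups compared alone and with the authors' processed values (1 to 3 with each array left out). In Dex plus LPS against LPS at 6 h, 4 clock genes were called, against 0 in the authors' spline-normalized table and 2 without background correction and with the authors' processed values (1 to 4 with each array left out). In Dex plus LPS against Dex at 6 h, 3 clock genes were called, against 0 in the authors' spline-normalized table and 1 without background correction, with genes detected on every array and with the authors' processed values (1 to 3 with each array left out). In the 6 h interaction, 1 clock gene was called, against 0 in the authors' spline-normalized table (0 to 1 with each array left out). In LPS against the label unstimulated at 3 h, 0 clock genes were called, against 2 without the fold minimum (0 to 1 with each array left out). In the labels Dex against unstimulated at 3 h, 0 clock genes were called, against 1 without the fold minimum (0 to 1 with each array left out). In Dex plus LPS against LPS at 3 h, 3 clock genes were called, against 1 without background correction, with genes detected on every array and with the authors' processed values (2 to 3 with each array left out). In the Dex effect at 6 h minus 3 h, 0 clock genes were called, against 1 without background correction (0 with each array left out). In Dex plus LPS against LPS over both experiments, 4 clock genes were called, against 1 without background correction and 2 with genes detected on every array. Over all genes and leaving the spline-normalized table aside, the count called under the alternatives was 774 to 2947 in LPS against unstimulated at 6 h (1333 as reported, 1280 to 1410 with each array left out), 123 to 530 in Dex against unstimulated at 6 h (274 as reported, 163 to 607 with each array left out), 138 to 609 in Dex plus LPS against LPS at 6 h (293 as reported, 140 to 304 with each array left out), 596 to 2280 in Dex plus LPS against Dex at 6 h (1051 as reported, 986 to 1215 with each array left out), 16 to 112 in the 6 h interaction (44 as reported, 3 to 362 with each array left out), 89 to 2797 in LPS against the label unstimulated at 3 h (234 as reported, 230 to 269 with each array left out), 0 to 1072 in the labels Dex against unstimulated at 3 h (61 as reported, 35 to 69 with each array left out), 120 to 2546 in Dex plus LPS against LPS at 3 h (276 as reported, 271 to 289 with each array left out), 4 to 231 in the Dex effect at 6 h minus 3 h (84 as reported, 0 to 364 with each array left out) and 102 to 489 in Dex plus LPS against LPS over both experiments (203 as reported). In the spline-normalized table the counts for the first 5 of these comparisons were 204, 0, 0, 196 and 26. Among the fits that left out 1 array, the lowest and highest counts with Dex alone at 6 h came without the first and the second Dex array; for the interaction they came without the first Dex plus LPS array and the second Dex array, and for 6 h minus 3 h without the first 3 h LPS array and the first 6 h Dex array. Leaving out the detection filter, the fold minimum or arrays changes which and how many genes are tested or how tightly the spread is known; the cause of the other changes was not tested. With the mean of all detected probes, the sign turned for Per1 (-0.37) in LPS against unstimulated at 6 h. In the authors' spline-normalized table, the sign turned for Per1 (-0.28), Bhlhe40 (-0.75) and Timeless (-0.54) in LPS against unstimulated at 6 h and for Per2 (-0.11), Dbp (0.03), Clock (-0.20) and Timeless (0.06) in Dex against unstimulated at 6 h. It also turned for Per1 (-0.19), Per2 (-0.11), Dbp (0.18) and Clock (-0.08) in Dex plus LPS against LPS at 6 h and for Per2 (-0.04), Bhlhe40 (-0.69) and Timeless (-0.63) in Dex plus LPS against Dex at 6 h. It turned as well for Per2 (-0.01) in the 6 h interaction. Without background correction, the sign turned for Nr1d2 (0.02) in the 6 h interaction. With median scaling, the sign turned for Dbp (0.03) in LPS against the label unstimulated at 3 h and for Clock (0.03) in the labels Dex against unstimulated at 3 h. It also turned for Bhlhe40 (0.05) in the Dex effect at 6 h minus 3 h. Leaving out 1 array turned the sign of values that passed no test: Dbp (-0.69 to 0.06) and Bhlhe40 (-0.10 to 0.14) in Dex plus LPS against LPS at 6 h, Per2 (-0.03 to 0.45) in Dex plus LPS against Dex at 6 h, Nr1d2 (-0.40 to 0.14) in the 6 h interaction, Per2 (-0.26 to 0.33), Nr1d2 (-0.12 to 0.17) and Dbp (-0.61 to 0.25) in LPS against the label unstimulated at 3 h, Dbp (-0.25 to 0.61) in the labels Dex against unstimulated at 3 h, Cry2 (-0.21 to 0.12) in Dex plus LPS against LPS at 3 h, Per2 (-0.17 to 0.42), Nr1d2 (-0.03 to 0.48) and Dbp (-0.35 to 0.40) in the Dex effect at 6 h minus 3 h.

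The labels number the replicates, but same-numbered 6 h arrays did not deviate together (correlations of their deviations -0.22 to 0.0091 over 7791 genes). These correlations cannot show whether same-numbered arrays shared a preparation. With a replicate block, the 6 h interaction had 16 genes and 0 clock genes called (Timeless -1.33, adjusted p = 0.0877; limma, 44 genes without the block), and no other call on a clock gene changed. No paired analysis was possible at 3 h because the columns carry no replicate numbers. Chip as a block was not run, since the headers name no chip.

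Median scaling moved the median of all genes by -0.137 to 0.284 log2 depending on the comparison. Signal over background limits Cry1, Nr1d1, Nr1d2, Cry2, Dbp and, at 3 h, Timeless, which lay near or below detection in some groups. The 2 arrays a group limit every adjusted p.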

Other observations

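At 3 h, 4 of 8 tested replication-fork partners passed the adjusted p upwards in Dex plus LPS against LPS, all under 2-fold, while Timeless was lower. They were Mcm5 (0.75 ± 0.08 log2, limma adjusted p = 0.00153), Mcm4 (0.67 ± 0.09, adjusted p = 0.00386), Clspn (0.91 ± 0.18, adjusted p = 0.0123) and Tipin (0.45 ± 0.10, adjusted p = 0.0171). Over all genes, 17% passed the adjusted p upwards in that comparison. In cells that had received Dex, 6 of 9 partners were called lower with LPS at 6 h, where 6.74% of all genes were, Mcm6 and Mcm4, both helicase subunits, among them (-1.13 ± 0.17 log2, adjusted p = 0.00076, and -1.01 ± 0.18, adjusted p = 0.00191). Timeless differed there by 0.09 ± 0.16 log2.

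The clock output genes Nampt and Noct passed the adjusted p downwards in Dex plus LPS against LPS at 3 h (-0.86 ± 0.14 log2, adjusted p = 0.00603, and -0.66 ± 0.11, adjusted p = 0.00644). At 6 h neither passed (0.13 ± 0.21 and -0.27 ± 0.23 log2).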
